A study of Mus musculus with 2 samples.

Results

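The genes described here are 10 components of the IL-6 family cytokine and STAT3 pathway, taken from a fixed list and found by symbol after the transcript rows of each gene had been summed. All 10 were in the table, among 31253 genes. They are the cytokines Il6, Lif and Cntf, the receptor chains Il6st, Lifr, Osmr and Cntfr, the kinase Jak1, the transcription factor Stat3 and the inhibitor Socs3. Their levels were compared between retina tissue and mNRPCs, neural retinal progenitor cells kept in culture up to passage 24, with 1 library of each and C57BL/6 as the strain of both. The cells had been grown on Matrigel from digested neural retina of adult mice, in N2/B27 medium to which bFGF, a mitogen, and CHIR99021, which blocks the kinase GSK3, were added. No IL-6 family cytokine is named among these supplements. The age of the mice behind the retina library is not given in the sources used here, and the mNRPC library stands for 1 culture. With 1 library per group, no difference has a replicate check and no p-value was calculated.

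Cytokines of this family act through a shared signalling chain, gp130, the product of Il6st. LIF binds LIFR together with gp130, CNTF needs in addition the anchored chain CNTFR, and oncostatin M uses OSMR or LIFR with gp130. The bound receptors activate Janus kinases such as JAK1, these phosphorylate STAT3, and STAT3 enters the nucleus and induces its targets, among them Socs3, whose product in turn blocks the receptor complex. In retina the pathway is known for its response to injury, in which Müller glia react to CNTF and LIF, and CNTF is known to protect photoreceptors.

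Values are FPKM, fragment numbers scaled to transcript length and to the mapped reads of a library, so levels of different genes can be set side by side. The exact depth is unknown, but the lowest steps of the values put it near 6.37e+06 fragments in mNRPCs and 5.06e+06 in retina. Intervals given with FPKM values are exact Poisson 95% intervals on fragment numbers estimated at these depths, and cover counting error only. A log2 ratio is log2 of (mNRPC FPKM + 1)/(retina FPKM + 1). The counting error printed with it is 1 standard error, to which a value of 0 adds nothing. A gene was called higher or lower at a ratio of at least 1 in size, which is 2-fold, if it had at least 1 FPKM in at least 1 library. Of 13780 genes compared in this way, 24.5% were higher in mNRPCs and 30.0% were lower, and the median log2 ratio was −0.12. Of all calls 44.9% were thus in the higher direction, a share that was 30.2% after the FPKM of both libraries had been set to a common sum of 1e+06. It was 26.3% in a separate rescaling, in which rod and cone genes were left out. There the retina library was set to the sum of the mNRPC library over rows matched to a gene symbol. This setting thus differs from the common sum in more than the rod and cone genes. Of 10 retinal progenitor markers, 8 reached 1 FPKM in the mNRPC library, 5 were higher there and 3 were lower, and Rax, a defining marker, was listed at 0. The study reported RAX in mNRPCs by RT-PCR. Of 24 rod and cone genes all were lower in mNRPCs, with a median of 0.0545% of the retina level. At that share the highest member level in retina would correspond to 0.00787 FPKM in the mNRPC library. The share is that of rods and cones alone, and markers of Müller glia summed to 54.1 FPKM in mNRPCs and 2102 in retina. Whether leftover retina cells contributed to the mNRPC values was not tested.

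Of the 10 genes, 5 were higher in mNRPCs (Socs3, Lif, Stat3, Il6 and Il6st), 1 was lower (Cntfr) and 4 were within 2-fold (Cntf, Lifr, Osmr and Jak1). The corresponding shares of all genes compared are the 24.5% and 30.0% given above. The median log2 ratio of the 10 genes was 0.75, against −0.12 for all genes. Il6 and Lif reached 1 FPKM in the mNRPC library alone, and Cntfr in the retina library alone, so each passed the filter only through the library in which it was higher. The calls of Il6st and Stat3 depended on how the libraries were scaled. Il6st, at a log2 ratio of 1.09 as deposited, was between 0.43 and 0.99 under the 5 other scalings tried. Stat3, at 1.26 as deposited, was at 0.79 after both libraries were rescaled to a common sum and at 0.59 when rod and cone genes were left out before rescaling. The calls of Socs3, Lif, Il6 and Cntfr were made under all 6 scalings. For Il6 this is little of a check. It was listed at 0 in retina, so the settings that scaled only the retina library could not change its ratio of 1.25. Under a common sum it was 1.69.

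**Figure D1:**
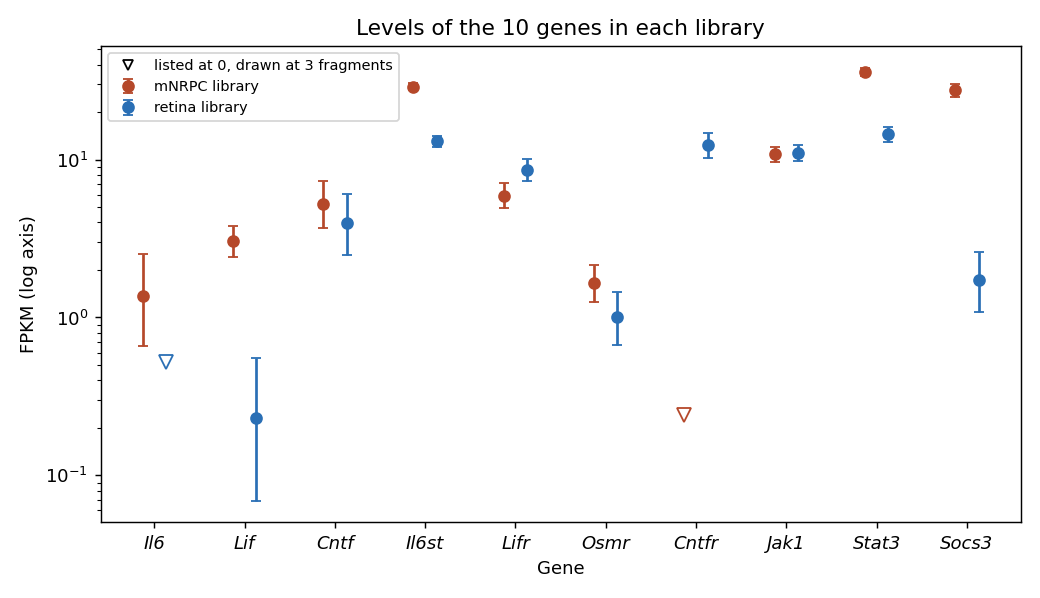
FPKM of each of the 10 genes (log axis) in the mNRPC and the retina library, with bars for the exact Poisson 95% interval on estimated fragments. Open triangles mark a gene listed at 0, drawn at the level of 3 fragments. Socs3 is at 27.5 FPKM in mNRPCs and 1.72 in retina, and Cntfr at 12.4 FPKM in retina is listed at 0 in mNRPCs.

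Socs3 (Gene ID 12702, chr11:117966079-117970336), the feedback inhibitor, had the highest log2 ratio of the 10 genes. It was at 27.5 FPKM in the mNRPC library (25.1 to 30.2) and at 1.72 in retina (1.08 to 2.60), a log2 ratio of 3.39 with a counting error of 0.20. This ratio was above that of 96.0% of the genes compared. Nearly all of it lay on the curated transcript row, with 98.1% of the gene's FPKM in mNRPCs and 90.2% in retina. Relative to Stat3, Socs3 was at 0.766 of its FPKM in mNRPCs (0.685 to 0.857) and at 0.119 in retina (0.0776 to 0.183). The inhibitor was thus close to the level of the transcription factor in the cultured cells and far below it in retina.

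As a known STAT3 target, Socs3 was also examined for the STAT element TTCNNNGAA, which reads the same on both strands, in RefSeq promoter windows of 250 bases before to 50 bases after the start of a gene (build GRCm38.p6). Every one of the 10 genes had at least 1 window, 16 windows in all, and Socs3 was the single member with a match. The element was in 8.30% of all 32851 windows and in 9.55% of the 27025 genes with a window. A match in 1 of 10 genes was thus near the share of all genes. Its narrower form TTCCNGGAA was in 1.15% of the windows and in no window of the 10 genes. The match in Socs3 begins 154 bases before the start. The window belongs to the 1 start that the RefSeq promoter table gives for Socs3, which lies inside the gene span printed above and not at its 5′ end. The 250 bases upstream of that start are shown because Socs3 had the highest ratio, with the match in capitals (chr11:117969367-117969616, minus strand).
Socs3: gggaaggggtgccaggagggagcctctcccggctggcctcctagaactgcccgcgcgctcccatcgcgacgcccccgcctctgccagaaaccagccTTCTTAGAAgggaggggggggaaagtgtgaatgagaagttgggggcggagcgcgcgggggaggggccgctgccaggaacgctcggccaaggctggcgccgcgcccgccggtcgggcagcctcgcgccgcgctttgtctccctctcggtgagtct

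Of the cytokines, Lif and Il6 were higher in mNRPCs and Cntf was within 2-fold. Lif (Gene ID 16878, chr11:4257568-4272514), which activates STAT3 through LIFR and gp130, was at 3.05 FPKM in mNRPCs (2.41 to 3.81) and 0.229 in retina (0.0692 to 0.557), a log2 ratio of 1.72 with a counting error of 0.18. The retina value rests on an estimated 4.54 fragments. The ratio depends on the added 1, and was 3.26 with 0.1 added in its place and 3.735 with nothing added. In mNRPCs 62.7% of Lif FPKM was on the row that codes for the secreted precursor of 203 residues and 22.9% on a row of 158 residues, while the retina level was too low to be divided among rows. Il6 (Gene ID 16193, chr5:30013114-30019975), the inflammatory cytokine that gives the family its name, was at 1.38 FPKM in mNRPCs (0.660 to 2.53), from about 10 fragments, and was listed at 0 in retina. In the retina library 3 fragments of Il6 would be 0.519 FPKM. The Il6 level in mNRPCs lay above that of 3.37% of the genes with at least 1 FPKM there.

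Cntf (Gene ID 12803, chr19:12763528-12765632), a survival factor for neurons, was at 5.27 FPKM in mNRPCs (3.69 to 7.30) and 3.98 in retina (2.48 to 6.05). Its log2 ratio of 0.33 was about as large as its counting error of 0.32 and changed sign, to −0.10, on rescaling to a common sum. Cntf had the highest FPKM of the 3 cytokines in both libraries. Its interval was clear of that of Lif in retina, but the intervals overlapped in mNRPCs. The neighbouring gene Zfp91 lies 1306 bases away. A single curated transcript row of Zfp91, not the sum of its rows, was at 45.5 FPKM in mNRPCs against 34.4 in retina. Whether transcripts running from Zfp91 into Cntf contributed to the Cntf values was not tested.

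Among the receptor chains, Il6st was higher as deposited, Cntfr was lower, and Lifr and Osmr were within 2-fold. Il6st (Gene ID 16195, chr13:112464070-112506860), the chain shared by the family, was at 29.0 FPKM in mNRPCs (27.6 to 30.5) and 13.1 in retina (12.04 to 14.2). Lifr (Gene ID 16880, chr15:7090610-7197489) was at 5.91 FPKM in mNRPCs (4.91 to 7.06) and 8.64 in retina (7.30 to 10.2), a log2 ratio of −0.48, which reached −1.13 when rod and cone genes were left out before rescaling. Osmr (Gene ID 18414, chr15:6813568-6874968), the oncostatin M receptor, was low in both libraries, at 1.66 FPKM in mNRPCs (1.26 to 2.14) and 1.01 in retina (0.669 to 1.46). No setting of the scaling called both Il6st and Lifr, but the proportion of their levels is a measure that no scaling of the libraries affects. There were 4.91 Il6st FPKM to each Lifr FPKM in mNRPCs (4.08 to 5.91) and 1.51 in retina (1.26 to 1.82).

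Cntfr (Gene ID 12804, chr4:41657498-41697091), the chain that gives cells their response to CNTF, was listed at 0 in mNRPCs on each of its 4 transcript rows. In retina it was at 12.4 FPKM (10.3 to 14.8), an estimated 124 fragments, and stood at rank 3 of the 10 genes. In the mNRPC library 3 fragments of Cntfr would be 0.240 FPKM. Since an estimate that failed would also appear as 0, the gene is described only as listed at 0. The listed markers of Müller glia were lower as well. All 9 were lower in mNRPCs, their summed level was 54.1 FPKM there and 2102 in retina, and Kcnj10 and Abca8a were listed at 0. The list leaves out Sox2 and Sox9, which are also known in Müller glia and are counted here as progenitor markers. Both were higher in mNRPCs, with log2 ratios of 3.57 and 1.73. Of the 10 progenitor markers 5 were higher and 3 lower. All 24 rod and cone genes, 4 of 5 astrocyte markers and 4 of 7 endothelial markers were also lower, beside 30.0% of all genes compared. The part of these cells in the Cntfr result was not tested, and in such bulk samples fewer cells of a type cannot be told apart from less RNA per cell.

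The kinase and the transcription factor also differed from each other. Jak1 (Gene ID 16451, chr4:101151974-101265282), which is bound to the cytoplasmic part of gp130, was at 10.8 FPKM in mNRPCs (9.69 to 12.03) and 11.0 in retina (9.76 to 12.4), a log2 ratio of −0.03 with a counting error of 0.11. Stat3 (Gene ID 20848, chr11:100886806-100939594) was at 36.0 FPKM in mNRPCs (33.7 to 38.3) and 14.4 in retina (12.9 to 16.1), and had the highest level of the 10 genes in both libraries. The Stat3 level was 3.33 times that of Jak1 in mNRPCs (2.94 to 3.76) and 1.31 times that of Jak1 in retina (1.12 to 1.53).

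In mNRPCs the order of levels was Stat3, Il6st, Socs3, Jak1, Lifr, Cntf, Lif, Osmr, Il6 and Cntfr. The counting intervals of neighbours overlapped for Il6st and Socs3, for Lifr and Cntf, for Cntf and Lif, and for Osmr and Il6. In retina the order was Stat3, Il6st, Cntfr, Jak1, Lifr, Cntf, Socs3, Osmr, Lif and Il6. There the levels of the first 5 genes lay between 8.64 and 14.4 FPKM, each overlapping with the next, and the first clear step was from Lifr to Cntf. Socs3 thus stood at rank 3 in mNRPCs and at rank 7 in retina.

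The transcript rows of several members were divided differently in the libraries. A read that fits several rows is assigned by estimation, so shares of single rows are less certain than gene sums. The Lifr row that codes for the full receptor of 1092 residues held 56.9% of Lifr FPKM in mNRPCs and 89.6% in retina. A curated row of 719 residues, the length of the known soluble form of mouse LIFR, held 20.1% in mNRPCs and 4.07% in retina. In FPKM the full row was at 3.36 in mNRPCs and 7.74 in retina, while the short row was at 1.19 and 0.351, on an estimated 21.6 and 5.06 fragments. The estimates for the short row are too few in fragments to call a difference in its level.

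For Stat3, the row of the long form of 770 residues (STAT3 alpha) held 66.9% of FPKM in mNRPCs and 63.7% in retina. The row of 769 residues held 23.4% and 11.1%. The row of 722 residues, which is STAT3 beta and lacks the C-terminal activation domain, held 7.94% in mNRPCs and 16.8% in retina, at 2.85 and 2.42 FPKM. The difference in Stat3 thus lay on the 2 long rows. For Osmr, the curated row of 971 residues held 80.5% in retina and 22.0% in mNRPCs, where 68.1% was on a predicted row at 1.13 FPKM. The shares of Jak1 were alike, with 58.4% and 56.5% on the curated row.

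**Figure D2:**
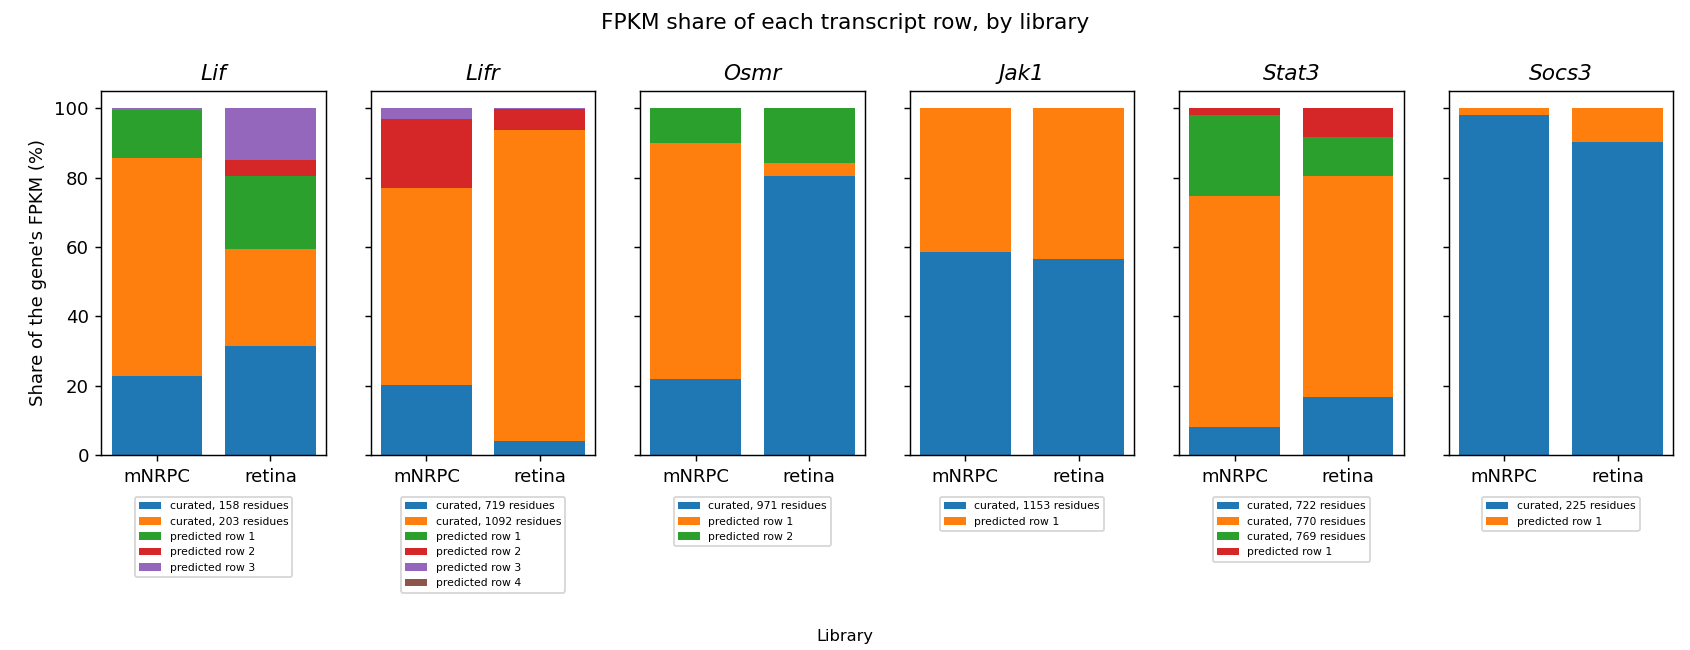
Share of each gene's FPKM (%, from 0) on each of its transcript rows, for 6 genes with more than 1 row, in the mNRPC and the retina library. Curated rows are named by the length of their coding region in residues. The full Lifr row takes 56.9% in mNRPCs and 89.6% in retina, and the main Osmr row changes from a predicted to the curated one.

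Other genes of the pathway were taken from lists of 65 genes in all. Of these, 26 were higher in mNRPCs, 10 were lower, 17 were within 2-fold and 12 did not reach 1 FPKM in either library. Of the 53 compared, these are 49.1% and 18.9%, beside 24.5% and 30.0% of all genes compared. Some called genes passed the filter only through the library in which they were higher. Among them were Il6ra, Stat5a, Socs1, Ptpn6, Birc5 and Timp1 in mNRPCs, and Gfap, Edn2, Fgf2 and Cish in retina. The shares of the lists and of all genes include such genes. Under a common sum 20 of 56 were higher and 13 lower (35.7% and 23.2%), beside 18.4% and 42.4% of all genes. With rod and cone genes left out, 18 of 55 were higher and 13 lower (32.7% and 23.6%), beside 16.0% and 44.8% of all genes. Of 9 other ligands and soluble partners, only Clcf1 and Ctf1 reached 1 FPKM. Clcf1, a ligand of the CNTF receptor, was at 11.9 FPKM in mNRPCs (10.01 to 14.04) and 2.35 in retina, a log2 ratio of 1.95. Ctf1, the gene of cardiotrophin 1, was at 8.98 and 5.22 FPKM (log2 ratio 0.68, and 1.74 with versioned accessions). Osm was listed at 0 in both libraries.

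Of 4 other receptor chains, 2 were compared, Il11ra1 and Il6ra, and both were higher in mNRPCs, beside 24.5% of all genes. Under a common sum and with rod and cone genes left out 1 of these 2 was higher, beside 18.4% and 16.0% of all genes. Il11ra1, the binding chain for IL-11, was at 52.5 FPKM in mNRPCs (48.5 to 56.6) and 18.6 in retina, a log2 ratio of 1.45 that was 0.97 under a common sum. Near-identical copies of this gene exist, so the division of reads among them is uncertain. Its ligand gene Il11 was at 0.299 FPKM in mNRPCs, about 2.76 fragments. Il6ra, the binding chain for IL-6, was at 1.60 FPKM in mNRPCs (1.11 to 2.24) and 0.148 in retina, where it rests on about 2.5 fragments. It was thus compared only because of its mNRPC level.

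Of 9 other kinases and STATs, 5 were higher in mNRPCs, 0 were lower and 2 were within 2-fold. Of the 7 compared, 71.4% were higher, beside 24.5% of all genes. The count was 3 of 8 (37.5%) under a common sum and with rod and cone genes left out, beside 18.4% and 16.0% of all genes. With the highest transcript row only it was 2 of 7 (28.6%), near the 27.4% of all genes. Stat6, which serves IL-4 signalling, had 35.0 FPKM in mNRPCs against 1.92 in retina (a log2 ratio of 3.62), and Stat2, which serves interferon signalling, had 56.6 against 4.11 (3.50). Tyk2 was at 6.98 and 2.65 FPKM (1.13) and Stat5a at 2.23 and 0.360 (1.25). Under a common sum Tyk2 was within 2-fold (0.79), and with curated rows only both Tyk2 (0.09) and Stat5a (0.79) were. Jak2 was at 22.6 and 12.96 FPKM (0.76) and Stat5b at 8.64 and 11.0 (−0.32), and with curated rows only Jak2 was higher (1.73).

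Of 15 other brakes on the pathway, 2 were higher in mNRPCs, 4 were lower and 9 were within 2-fold, with a median log2 ratio of −0.24. These are 13.3% and 26.7%, beside 24.5% and 30.0% of all genes compared, so the share of lower brakes was near that of all genes. Under a common sum 6 were lower (40%, beside 42.4% of all genes). Curated rows alone gave 4 higher and 3 lower brakes and a median of 0.09. These are 26.7% and 20%, beside 26.4% and 27.9% of all genes. With versioned accessions 3 of 11 were higher and 2 lower, and the median was 0.26. These are 27.3% and 18.2%, beside 26.0% and 28.9% of all genes. Socs1, the inhibitor closest in structure to Socs3, was at 7.25 FPKM in mNRPCs (6.07 to 8.58) and 0.898 in retina (0.475 to 1.54), a log2 ratio of 2.12. Ptpn6, a phosphatase gene, had 1.57 FPKM in mNRPCs and 0.144 in retina. Of the other Socs family genes of the list, Socs4, Socs5 and Socs6 were within 2-fold and 3 were lower, but with curated rows only Socs5 (1.70) and Socs6 (2.32) were higher. Socs7 was at 6.37 and 40.1 FPKM (−2.48), Socs2 at 1.18 and 5.61 (−1.60) and Cish, a further gene of this family, at 0.849 and 2.79 (−1.04), which was within 2-fold with curated rows only (−0.91). Pias2, of the PIAS family of STAT inhibitors, was at 10.5 and 25.2 FPKM (−1.19).

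**Figure D3:**
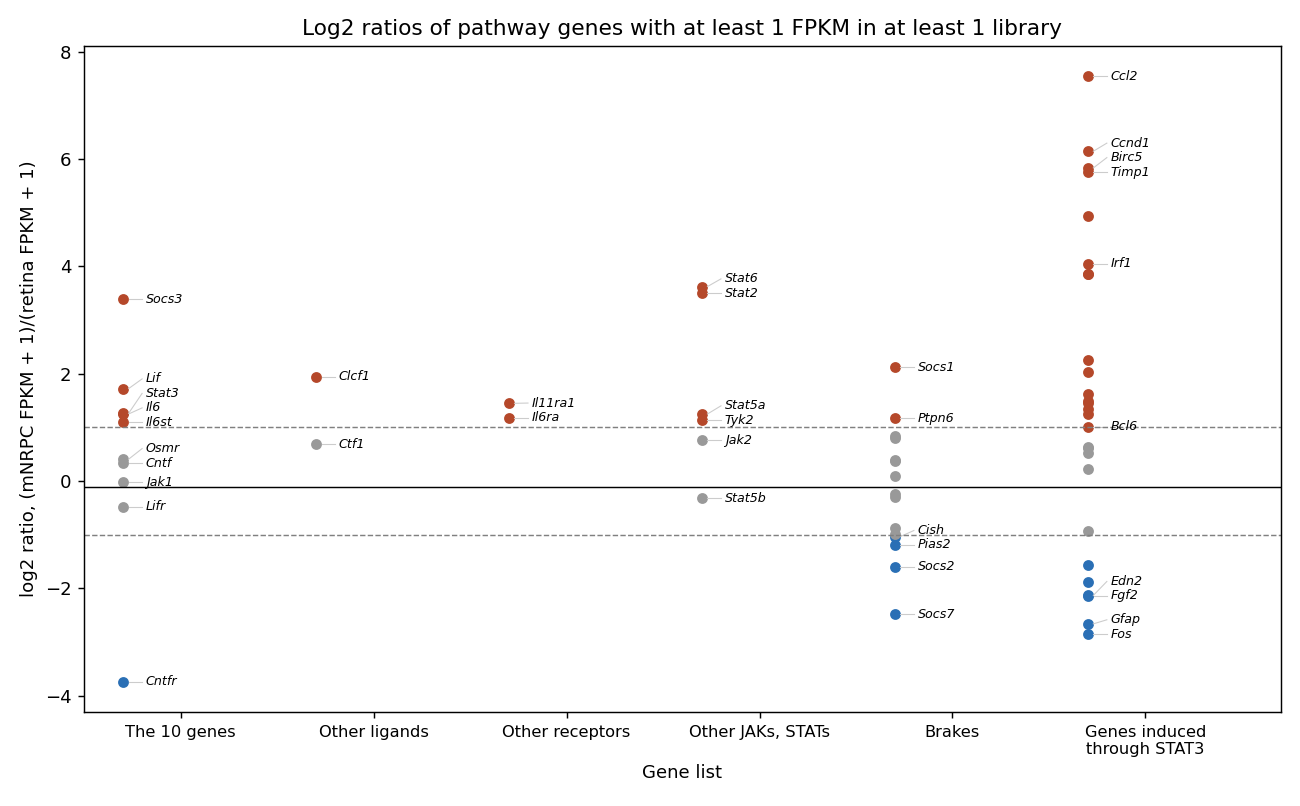
Log2 ratio of genes that reached 1 FPKM in a library, by list, with names for genes given in the text and with red for higher, blue for lower and grey for within 2-fold. Dashed lines mark the 2-fold thresholds and the solid line the median of all genes compared (−0.12); genes listed at 0 in 1 library are drawn at the ratio that the added 1 gives. Socs3 and Socs1 are above the threshold, while Socs7, Socs2 and Cish are below the lower one.

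Of 28 genes known to be induced through STAT3, 16 were higher in mNRPCs, 6 were lower, 5 were within 2-fold and 1 was under the filter, with a median log2 ratio of 1.30 over the list. Of the 27 compared, these are 59.3% and 22.2%, beside 24.5% and 30.0% of all genes compared. Under a common sum 13 of 28 were higher and 7 lower (46.4% and 25%), beside 18.4% and 42.4% of all genes. With rod and cone genes left out 11 of 27 were higher and 7 lower (40.7% and 25.9%), beside 16.0% and 44.8%. The higher genes with the largest ratios have other known inputs as well. Ccl2, a chemokine, was at 375 FPKM in mNRPCs against 1.02 in retina, the latter from about 4.19 fragments, a log2 ratio of 7.54. Ccnd1, the cyclin of the G1 phase, was at 371 and 4.26 FPKM (6.14). Birc5, a gene of dividing cells, had 69.4 FPKM in mNRPCs and 0.235 in retina, an estimated 1.13 fragments, and Timp1, an inhibitor of matrix proteases, was at 77.9 and 0.460 FPKM, the latter an estimated 2.05 fragments.

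Of the genes of this list that were lower, the 4 with the largest ratios were Fos, Gfap, Fgf2 and Edn2. Gfap, the intermediate filament gene of astrocytes and reactive Müller glia, was at 5.33 FPKM in retina and was listed at 0 in mNRPCs. The study, however, reported GFAP in mNRPCs by immunofluorescence and by RT-PCR. Edn2, the gene of a peptide released by stressed photoreceptors, was at 3.39 FPKM in retina and also listed at 0 in mNRPCs. Fgf2, the gene of bFGF, which was also added to the culture medium, was at 3.86 FPKM in retina. In mNRPCs it was at 0.101, from about 3.85 fragments (−2.14). Fos, an immediate early gene, was at 3.39 and 30.8 FPKM (−2.86). The listed markers of Müller glia and all 24 rod and cone genes were lower beside these, as were 4 of 5 astrocyte markers. The astrocyte list holds Gfap itself and shares Aqp4 with the Müller glia list. The part of these cells was not tested.

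Microglia, a known source of IL-6 family signals in retina, had few of their markers in the mNRPC library. Of 12 markers 9 were listed at 0 there, among them C1qa, C1qb, C1qc and Ptprc, and the summed level was 3.06 FPKM, against 20.9 in retina. Nearly all of the mNRPC sum came from Cd68 (1.82 FPKM, and 1.35 in retina) and Tmem119 (1.23 FPKM, and 0.880 in retina), both within 2-fold. In all, 7 of the 12 were under the filter. Of the 5 compared, 3 were lower and 2 were within 2-fold, beside 30.0% of all genes compared that were lower. Endothelial markers summed to 0.132 FPKM in mNRPCs and 40.2 in retina. Of 8 fibroblast and mesenchymal markers 6 were compared, and 2 of these were higher in mNRPCs and 0 lower, beside 24.5% of all genes higher. The 8 summed to 470 FPKM in mNRPCs, mostly Col3a1 (450 FPKM), while Lum was listed at 0 in both libraries. The part of any of these cells in the results was not tested.

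The STAT element was looked for in the same windows of the other pathway genes. Of 46 with a window, 6 held TTCNNNGAA and 5 of these the narrower TTCCNGGAA, beside 9.55% and 1.35% of all 27025 genes with a window. The sites of 5 genes, chosen after their values were seen, are shown because the genes are known STAT targets, each with 10 bases on either side and the element in capitals, and with 1 site each for Bcl6 and Cish, which had 4 and 2.
Irf1: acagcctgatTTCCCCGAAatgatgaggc
Bcl6: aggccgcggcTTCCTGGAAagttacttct
Icam1: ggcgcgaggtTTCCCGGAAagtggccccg
Gfap: atgggggtgcTTCCAGGAAgtcaggggca
Cish: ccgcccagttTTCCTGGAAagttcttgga

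The sites lie at chr11:53769914-53769942 (Irf1, an interferon response factor, plus strand), chr16:23981433-23981461 (Bcl6, minus), chr9:21015888-21015916 (Icam1, plus), chr11:102897184-102897212 (Gfap, minus) and chr9:107296649-107296677 (Cish, plus). Beside these elements, Irf1 had 66.0 FPKM in mNRPCs against 3.06 in retina, a log2 ratio of 4.04. Bcl6, a transcriptional repressor, was at 16.6 and 7.78 FPKM, and its ratio of 1.01 was under the threshold with each of the 5 other scalings (0.37 to 0.91). Icam1, an adhesion molecule, was under 1 FPKM in both libraries, at 0.455 and 0.576. Gfap and Cish were lower in mNRPCs, with the limit on Cish given above. A match of letters is not a binding site, and no match says only that these letters are not in the window.

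**Figure D4:**
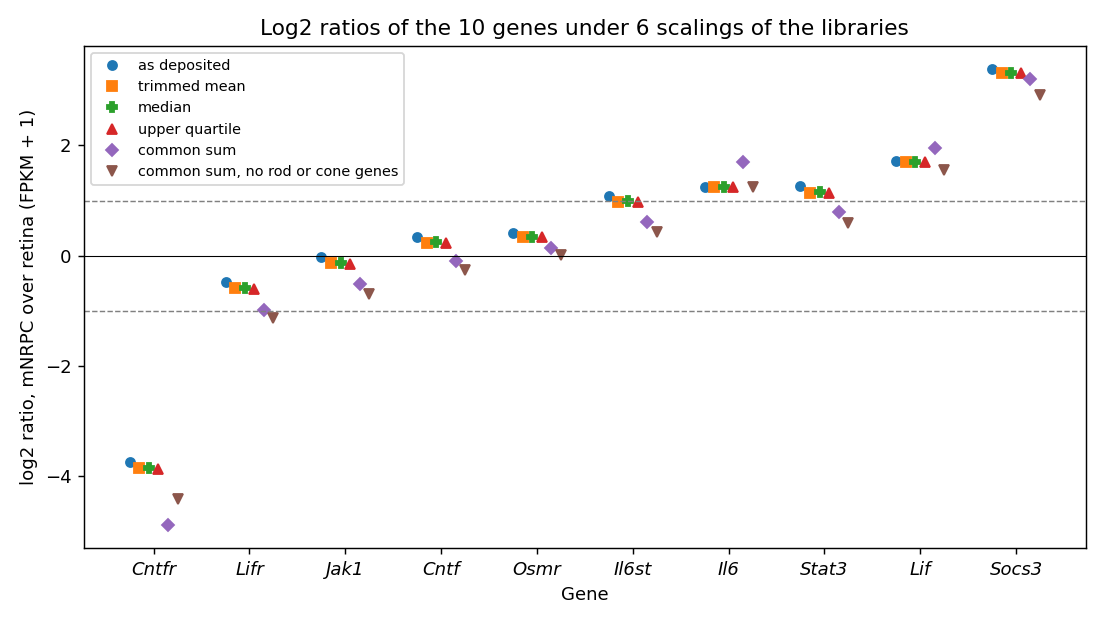
Log2 ratio of each of the 10 genes under 6 scalings of the libraries, with dashed lines at the 2-fold thresholds. Socs3 stays between 2.91 and 3.39, whereas Il6st is above the upper line only as deposited, and Cntf changes sign.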

How the data were processed

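RNA sequencing values of 2 libraries were used, 1 per group, with groups taken from the labels. The deposited values were FPKM per RefSeq transcript, calculated by the authors. The study's methods name Bowtie 2 and eXpress, whereas the submitters' processing notes list TopHat2 2.0.10 and build GRCm38.p3. The annotation release is not given in the sources used here. Of 106754 rows, 69.6% were matched by accession without version to RefSeq symbols of GRCm38.p6 or, failing that, to GENCODE M21, and summed per gene. The matched rows carried 93.2% (mNRPC) and 89.9% (retina) of the summed FPKM. Of the 73243 predicted rows 55.85% were matched, and the rest may include rows of the genes described. Patch releases of GRCm38 share chromosome coordinates. Values below 1e-06 were read as 0.

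As in the study's methods, 1 was added before the log2 transformation. Depth was estimated from the mode of FPKM times length among the lowest values of genes with 1 row of at least 1500 bp (160 rows near the mode in each library). With 500 bp it was 6.24e+06 and 4.84e+06 fragments and with 2500 bp 6.55e+06 and 5.53e+06. Fragment numbers are therefore estimates, and predicted rows took the median length of the gene's curated rows. The calculation was tested on simulated data. No group had a replicate, so the 2-fold rule took the place of a test, and TTCNNNGAA was searched in RefSeq windows of 300 bases. Of the lists, genes were named if a list had at most 12, and otherwise up to 4 per direction with the largest ratio. The neighbour of Cntf, Zfp91, and the genes shown for a motif match were added after their values were seen. The 10 genes and the lists were chosen with earlier results of these data known. Alternatives were the pseudocount, filter, scaling, choice of rows and threshold. Python 3.11.15, pandas 2.3.3, numpy 2.4.6 and scipy 1.17.1 were used. Some genes of the lists are counted but not reported by name here.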

Additional observations from a re-analysis of the deposited data

How the results depend on the processing

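The median log2 ratio of the members stayed above 0. Where all 10 were compared it lay between 0.22 and 0.93, and it was 1.09 over 9 with curated rows only and with the highest transcript row only, 0.33 over 7 at a minimum of 5 FPKM and 0.71 over 6 with versioned accessions. It was 0.93 with values at or under 3 fragments set to that level and no pseudocount, a setting that, like median scaling, was chosen after seeing the data. The number of higher members fell from 5 to 3 both with rescaling to a common sum and with rod and cone genes left out, where Il6st and Stat3 fell under the threshold, to 3 at a minimum of 5 FPKM, which left 7 genes, and to 3 with versioned accessions, which left 6. It was 4 with upper quartile, trimmed mean and median scaling, without Il6st, and 1 at a 4-fold threshold. The number of lower members was 2 with rod and cone genes left out and with the highest transcript row only, where Lifr joined Cntfr, and 0 with versioned accessions, under which Cntfr was not among the genes compared. Among all genes, 6349 were lower after rescaling and 6418 with rod and cone genes left out, and a 4-fold threshold left 1547 higher and 1942 lower. The higher share of calls was 44.9% as deposited, 30.2% after rescaling and 26.3% with rod and cone genes left out, and the median of all genes moved to −0.69 and −0.81. Of 718 values of single pathway genes under alternatives, 547 were counted as unchanged, 171 moved and 0 of the called values changed sign. The margin for unchanged values was wider than the counting errors printed with the ratios. Il6 was counted as unchanged at 1.69 under a common sum against 1.25 as deposited, with a counting error of 0.26. That error covers the mNRPC library alone, because Il6 was listed at 0 in retina. The number of fragments limits Il6 and the genes listed at 0. No paired analysis was possible because there was 1 library per group.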
